A study of Mus musculus with 16 samples.

Results

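The flanks described here are the stretches of mouse chromosome 5 on each side of a 2.61 Mb gap that holds the shared promoter of Pole and Pxmp2 and in which no Pole library listed a site. The centromeric flank runs over chromosome 5 from 100000001 to 109110986 and the telomeric flank from 111716061 to 121000000, in mm9 coordinates. Every listed site starting inside these limits in any of the 16 libraries was a member, which gave 13272 of the 327988 sites listed in the series. Of these, 11667 were listed in Pole libraries, where they are contacts in cis (on the viewpoint's own chromosome), and 1605 in Cdca3 libraries, where they are contacts in trans. Sites that overlapped between libraries by at least 1 bp were joined, and the members then came to 2677 distinct restriction sites.

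The libraries were made by 4C-seq (circular chromosome conformation capture with sequencing), which lists the restriction sites ligated to a chosen locus, the viewpoint. There were 4 libraries in each of 4 groups. These were Rb1L/L and Rb1+/+ cells at the Pole/Pxmp2 promoter on chromosome 5, and Rb1L/L and Rb1+/+ cells at the Cdca3/Usp5 promoter on chromosome 6. All cells were mouse embryonic fibroblasts (MEFs) from E13.5 embryos, proliferating at passage 4, crosslinked with formaldehyde and cut with HindIII and then NlaIII. Rb1L/L cells are homozygous for an Rb1 allele whose product is known from other work to lack a working cleft for proteins with an LXCXE motif. The series title concerns condensin II and its recruitment by pRb, the Rb1 product, to promoters of divergent gene pairs. Replicates are numbered as 4 pairs, each with a Rb1L/L and a Rb1+/+ culture, and since the identifiers recur, Pole and Cdca3 libraries were taken to share 8 cultures. Nothing in the labels says whether a culture came from 1 embryo or from several, so p-values measure the spread between these cultures.

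Crosslinked chromatin is ligated most often to sequence nearby on the same chromosome, and contact frequency falls with distance. At a scale of megabases the fall is uneven, because active and inactive stretches of a chromosome tend to associate with their own kind. Condensin complexes compact and fold chromosomes, and pRb restrains entry into the cell cycle. Pole encodes the polymerase subunit that copies DNA within polymerase epsilon. Pxmp2 encodes a channel protein of the peroxisome membrane. In the GRCm38.p6 gene order, the protein-coding genes around this pair include Chfr, a ubiquitin ligase of the mitotic checkpoint, and Ep400, a chromatin remodelling ATPase. Farther along the same side as Ep400 come Ulk1, a kinase that starts autophagy, and Chek2, a kinase of the DNA damage response. No mm9 annotation was used here, so whether such a gene lies in the gap or in a flank is not stated, and windows and regions are given by mm9 position.

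The deposited lists hold sites with a p-value or q-value below 0.05 and no read counts, so the depth of each library is unknown. Pole libraries listed 6485 to 17522 sites and Cdca3 libraries 15802 to 39650. Both Pole libraries of pair 1 were shortest in their genotype, at 6485 sites in Rb1L/L and 7925 in Rb1+/+ cells. The shortest region called on the viewpoint's own chromosome was 0.252 to 0.317 Mb across the 16 libraries, against 1.31 to 1.44 Mb on other chromosomes. Cis and trans regions were therefore of different grain, and region lengths are set against each other between the views only as shares by flank. The inner limits of the flanks are the Pole sites next to the gap, so that sites are listed at those limits follows from how the flanks were drawn.

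In Pole libraries the flanks were denser in listed sites than the rest of chromosome 5 in every culture. The density in the flanks over that in the rest was 2.43, 1.65, 1.57 and 1.99 in Rb1L/L libraries, and 2.06, 1.87, 2.01 and 1.76 in Rb1+/+ libraries. The genotypes overlapped throughout. Over the 8 libraries the mean log2 ratio was 0.93 ± 0.20 (SD, n = 8), a 1.90-fold higher density. It was above 0 in 8 of 8 libraries (exact two-sided sign-flip permutation test, p = 0.0078, the smallest that 8 values can give). This was 1 of 7 comparisons made within libraries or cultures, and its Benjamini-Hochberg adjusted p over them was 0.0109. Against the stretch from 60 to 100 Mb alone the mean log2 ratio was 0.50, also with an exact p of 0.0078.

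The centromeric flank carried more of this density than the telomeric flank. It held 56.1, 109, 110 and 115 sites per Mb in Rb1L/L libraries, and 63.1, 81.1, 130 and 117 in Rb1+/+ libraries. The telomeric flank held 53.0, 53.5, 52.7 and 69.9 sites per Mb in Rb1L/L libraries, and 54.9, 46.2, 82.7 and 76.2 in Rb1+/+ libraries. The centromeric value was the higher in each of the 8 libraries, by the least in both libraries of pair 1. Averaged over the 8 Pole libraries, the centromeric flank had 97.8 ± 27.3 sites per Mb and the telomeric flank 61.1 ± 13.2 (SD). Beyond 121 Mb the mean was 57.2 ± 13.7, from 60 to 100 Mb it was 56.8 ± 15.6, and below 60 Mb it was 24.4 ± 9.49. In this order the telomeric flank, the stretch beyond 121 Mb and that from 60 to 100 Mb lay within their spread of each other. The centromeric flank had 1433 distinct sites listed in any of the 16 libraries, and the telomeric flank 1244. The restriction sites present in each stretch were not counted, and their part in these densities was not tested.

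The Pole flanks were also set against flanks of the same lengths around Cdca3, where the share of the own chromosome's sites was slightly higher on average but not past the adjusted test. The Cdca3 gap, 122734331 to 125781765 on chromosome 6 (3.05 Mb), is the stretch without Cdca3 sites at the approximate position of that promoter, which the files do not mark. Pole flanks held 25.9%, 19.2%, 18.4% and 22.3% of chromosome 5 sites in Rb1L/L libraries, against 27.0%, 19.4%, 20.7% and 21.1% of chromosome 6 sites in the Cdca3 flanks of the same cultures. In Rb1+/+ libraries they held 22.9%, 21.2%, 22.5% and 20.2%, against 24.8%, 23.8%, 22.8% and 21.9% at Cdca3. The difference was -1.14 ± 1.25 percentage points (SD, n = 8), below 0 in 7 of 8 cultures (exact two-sided sign-flip permutation test, p = 0.0469, adjusted 0.0547). Leaving out any culture but Rb1L/L replicate 4, singly, put the unadjusted p above 0.05 as well. Within 5 Mb of an edge the difference was larger, -2.18 percentage points (exact sign-flip p = 0.0078, unadjusted).

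Listing did not fall evenly with distance from the gap. In the first 1 Mb of the centromeric flank, the 8 Pole libraries listed on average 86.5% of the 273 distinct sites seen there in any of the 16 libraries, with a range of 73.6% to 95.2%. In the first 1 Mb of the telomeric flank the mean was 83.0% of 210 distinct sites, with a range of 62.9% to 97.6%. On the centromeric side the mean was still 66.6% at 1 to 2 Mb, and was 38.2% at 5 to 6 Mb and 63.7% at 8 to 9 Mb. On the telomeric side it was 18.4% at 1 to 2 Mb, 57.1% at 2 to 3 Mb and 7.01% at 3 to 4 Mb. It then stood at 74.6% at 6 to 7 Mb, a bin of only 65 distinct sites in which all 8 libraries listed sites. The mean of this far bin lay within the range of the innermost telomeric bin, while at 3 to 4 Mb sites were listed in 3 of the 8 libraries, all of them Rb1+/+. These shares are of sites listed at least in 1 library, since restriction sites never listed are not in the files. The sites counted include those listed only in Cdca3 libraries, 2.02% on the centromeric and 19.7% on the telomeric side. Their part in the Pole shares was not tested.

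**Figure D1:**
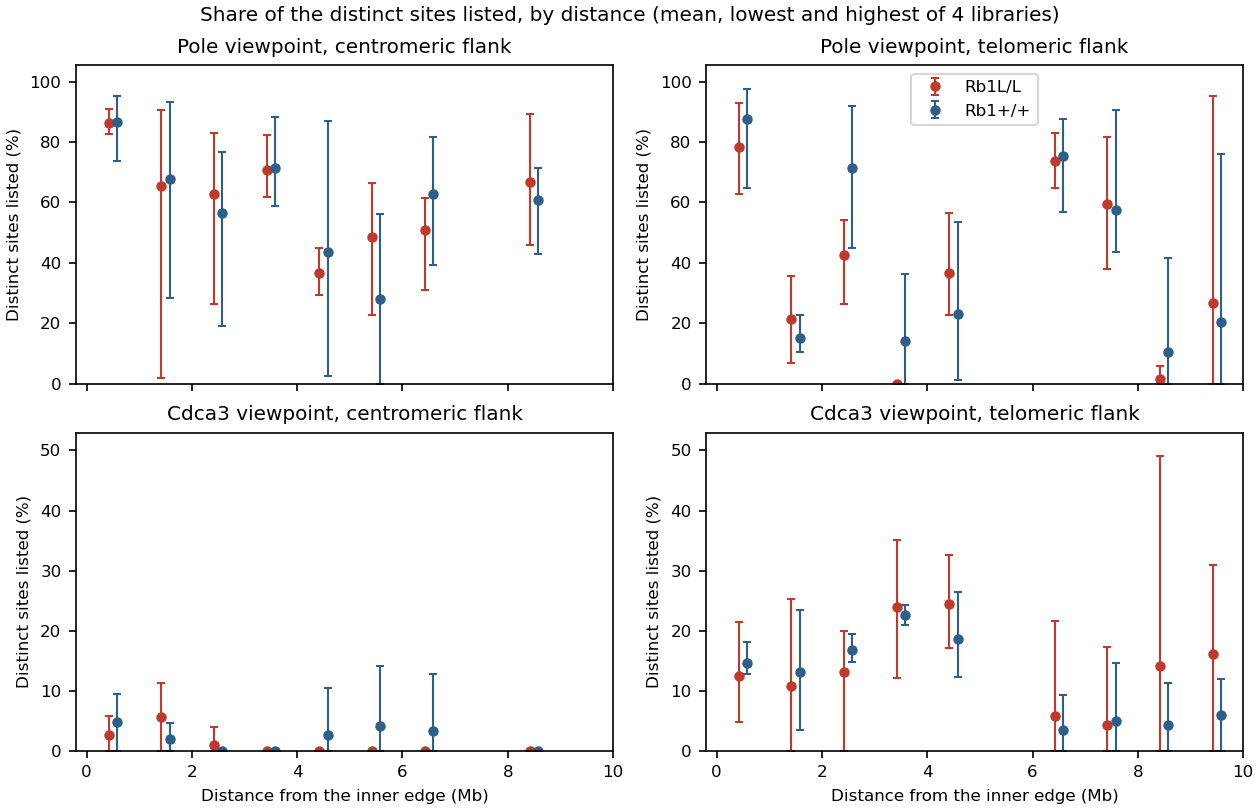
Share of the distinct restriction sites of each 1 Mb bin that a library listed (percent), against distance from the inner edge of the flank (Mb), for the Pole (upper) and Cdca3 (lower) viewpoints. Points are means of 4 Rb1L/L (red) or 4 Rb1+/+ (blue) libraries, bars run to the lowest and highest library, and bins with under 20 distinct sites are not drawn. On the telomeric side the Pole means are 78.3% in Rb1L/L and 87.6% in Rb1+/+ cells beside the gap, and 73.8% and 75.4% at 6 to 7 Mb, and the genotypes' ranges overlap in every bin drawn.

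The called regions gave the same flanks a repeating outline. Pole libraries had 10.5 ± 1.29 regions touching the flanks in Rb1L/L cells and 10.5 ± 1.29 in Rb1+/+ cells (SD, n = 4 each). Joined across libraries, they made 11 merged regions, of which 9 held a call in all 8 libraries. The first on the telomeric side spans 111538228 to 113050546, and 7 of its 8 calls began at 111538229, with all 8 starts within 0.001 kb. Its start lies inside the gap, and a 1.36 Mb core was covered in every library. The first telomeric site listed was 111716061 in all 8 Pole libraries, the site that limits the flank. This shared start is therefore not independent of how the flanks were drawn. The calls of the region from 105887234 to 106448175 began within 0.308 kb of each other, 5 of them at 105887486. A 0.457 Mb core of it was covered in all 8 libraries. Elsewhere the edges moved more. Starts of the region from 118207758 to 120030643 spread over 115 kb, and its shared core was 1.13 Mb.

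The longest merged Pole region lay beside the gap on the centromeric side, from 106808173 to 109331952 (2.52 Mb). The bases covered in all 8 libraries came to 1.63 Mb, in separate pieces. The next in length were the one from 113338622 to 115298036 (1.96 Mb) and the one from 118207758 to 120030643 (1.82 Mb). The remaining regions with a call in all 8 libraries were 1.03 Mb (from 100292136), 1.45 Mb (from 101976562), 1.27 Mb (from 103730581) and 1.02 Mb (from 115588676) long. The region from 103730581 had no base covered in all 8 libraries, so there the libraries agreed on a neighbourhood and not on an interval. The pair of regions without a call in every library lay at the outer limits, from 99631226 in 2 Rb1+/+ libraries, and from 120498380 in 2 Rb1L/L and 2 Rb1+/+ libraries.

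**Figure D2:**
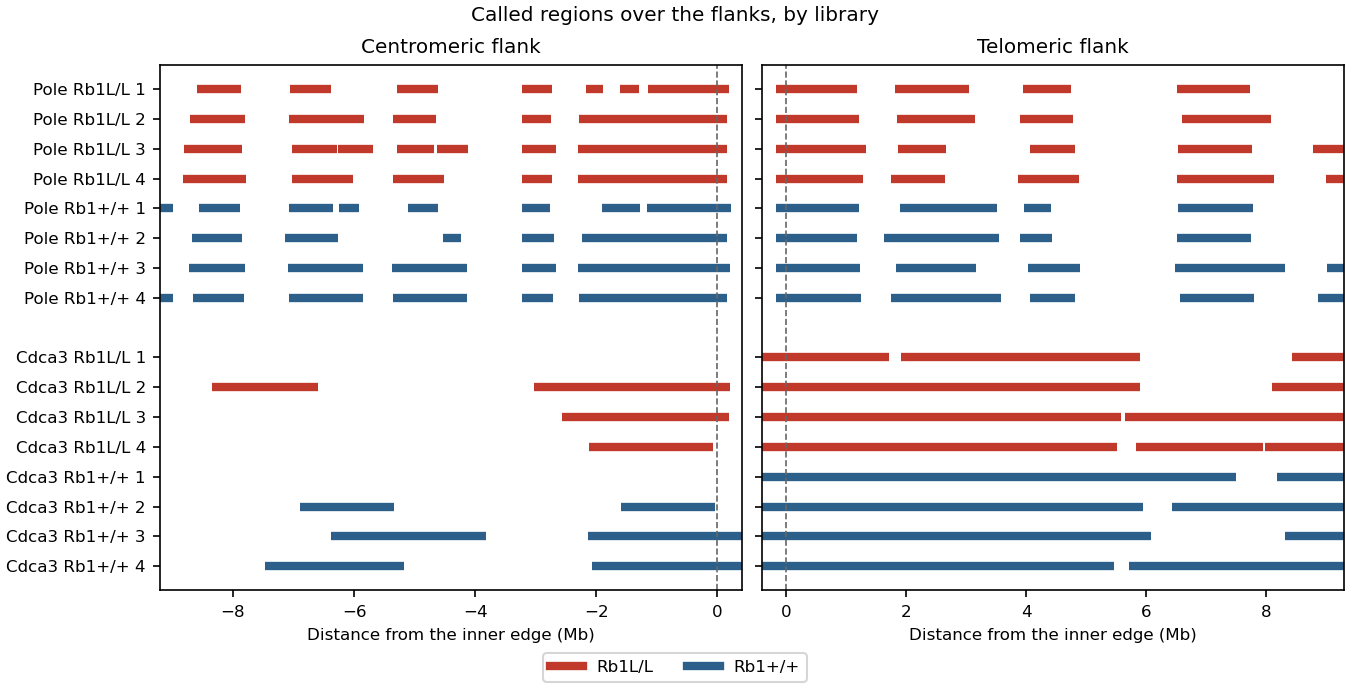
Regions called significant by the authors over the flanks, 1 row for each library, against distance from the inner edge (Mb, negative on the centromeric side, dashed line at the edge), Rb1L/L in red and Rb1+/+ in blue. In the 8 Pole rows, bars recur at the same distances. The first telomeric bar starts within 0.001 kb in all 8, beside the gap edge that also set the flank limit. Cdca3 rows have 3.5 ± 0.76 long bars each (mean and SD of 8), mostly on the telomeric side.

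In windows of 500 kb, 18 of the 38 flank windows held a Pole site in all 8 libraries and 7 held none in any. Of flank windows with at least 1 Pole site, 58.1% had sites in all 8 libraries, and of the other chromosome 5 windows 48.3%. The highest were 3 windows in a row beside the gap on the centromeric side. The window from 108.5 to 109 Mb had 118, 129, 126 and 126 sites in Rb1L/L libraries, and 124, 91, 131 and 127 in Rb1+/+ libraries. That from 108 to 108.5 Mb had 86, 131, 116 and 120 sites in Rb1L/L libraries, and 101, 124, 132 and 124 in Rb1+/+ libraries. Both were high throughout, and the genotypes overlapped.

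The window from 107.5 to 108 Mb had 4, 157, 162 and 160 sites in Rb1L/L libraries, and 51, 154, 163 and 163 in Rb1+/+ libraries. Its neighbour from 107 to 107.5 Mb had 1, 120, 122 and 141 sites in Rb1L/L libraries, and 31, 53, 138 and 110 in Rb1+/+ libraries. In both windows the low libraries were those of pair 1, in each genotype, joined in the second by replicate 2 of Rb1+/+ cells. The lists of pair 1 were also the shortest, and the part of list length in these values was not tested.

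Farther out, the window from 118.5 to 119 Mb was among the steadiest, with 85, 91, 90 and 92 sites in Rb1L/L libraries, and 80, 92, 94 and 94 in Rb1+/+ libraries. The windows between 116.5 and 118 Mb, nearer to the gap, held no Pole site in any of the 8 libraries. The innermost windows are cut by the gap. On the centromeric side the window from 109 Mb had 24, 21, 22 and 19 sites in Rb1L/L libraries, and 33, 17, 31 and 20 in Rb1+/+ libraries. On the telomeric side the window to 112 Mb had 40, 26, 45 and 43 sites in Rb1L/L libraries, and 45, 28, 45 and 44 in Rb1+/+ libraries. The lowest windows with any Pole site that were tested, from 115, 100 and 106.5 Mb, held 12, 14 and 20 sites over the 8 libraries.

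**Figure D3:**
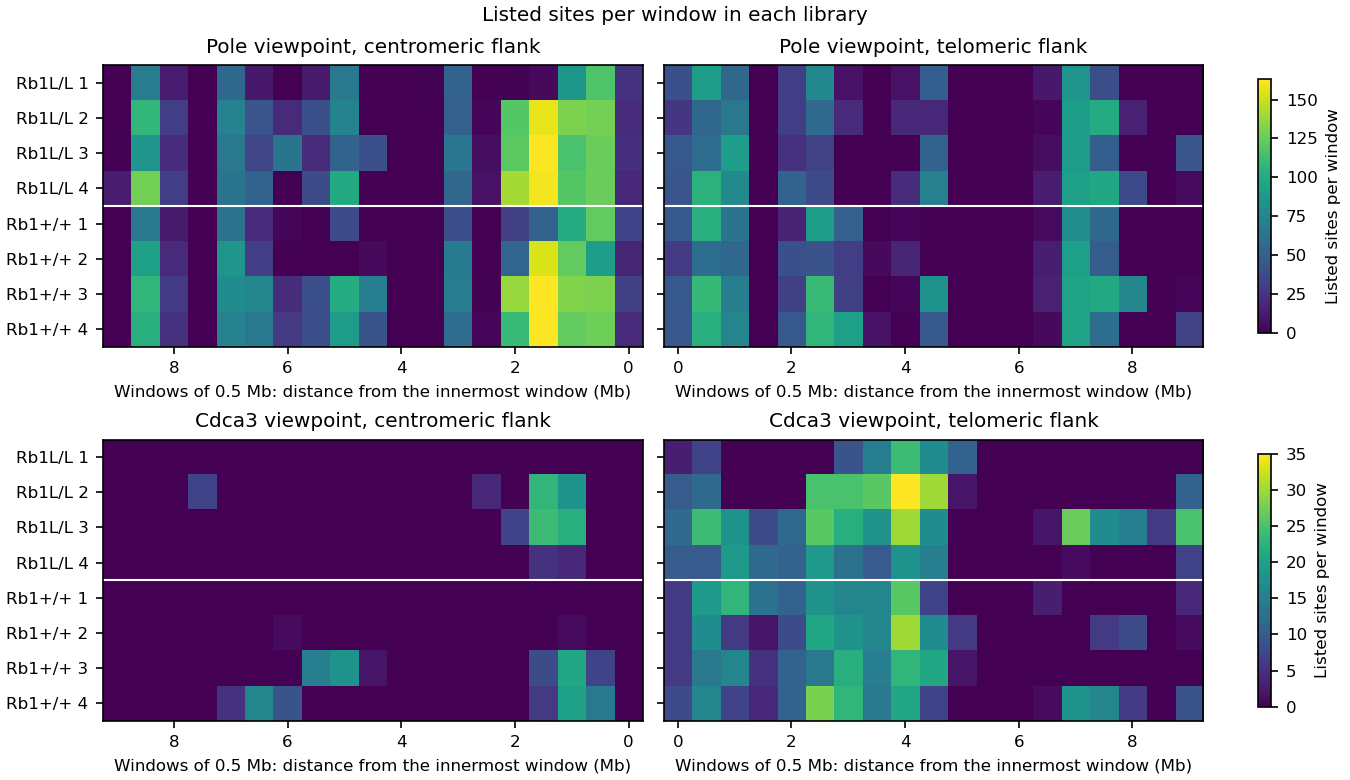
Number of listed sites in each 500-kb window of the flanks (colour, with a scale of its own for each viewpoint) by library (rows, Rb1L/L above the white line and Rb1+/+ below it), against distance from the innermost window (Mb). Pole libraries are brightest near the gap on the centromeric side, up to 163 sites, with replicate 1 of each genotype dimmer in the window where the others peak, and most Cdca3 libraries are brightest about 4 Mb into the telomeric flank, up to 35 sites.

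The same restriction sites came back in library after library more often in the flanks than elsewhere on the chromosome. Of 2403 distinct Pole sites in the flanks, 499 (20.8%) were listed in all 8 libraries, against 755 of 11579 (6.52%) in the rest of chromosome 5. At least 6 of the 8 libraries listed 47.0% of the flank sites, and 25.6% of the sites in the rest. Sites seen in exactly 1 library made up 13.4% in the flanks and 22.0% in the rest. The shares in all 8 libraries were close on both sides of the gap, at 21.2% of 1404 centromeric and 20.1% of 999 telomeric sites. These shares are given without a test. Listed sites were also denser in the flanks, and the part of that in these shares was not tested.

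The width of the listed intervals also differed along the chromosome. A HindIII recognition site is 6 bp wide, and most listed intervals have that width, but others are wider, up to 14 bp in the flanks of Pole libraries. What a wider interval stands for is not given in the sources used here. Intervals over 6 bp made up 37.8%, 35.8%, 25.3% and 46.6% of flank sites in Rb1L/L libraries, and 47.4%, 22.6%, 41.2% and 52.8% in Rb1+/+ libraries. In the rest of chromosome 5 they made up 26.8%, 20.5%, 14.1% and 32.1% in Rb1L/L libraries, and 31.0%, 14.1%, 25.4% and 36.6% in Rb1+/+ libraries. The libraries differed widely in level, and in each of them the flanks had the larger share. The mean difference was 13.6 ± 2.96 percentage points (SD, n = 8), above 0 in 8 of 8 libraries (exact two-sided sign-flip permutation test, p = 0.0078, adjusted 0.0109).

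Within the flanks, wide intervals were more frequent near the gap. Within 3 Mb of an inner edge they made up 43.2% ± 11.5 of Pole flank sites, and beyond it 32.5% ± 9.50 (SD, n = 8). The difference of 10.8 ± 3.58 percentage points was above 0 in 8 of 8 libraries (exact two-sided sign-flip permutation test, p = 0.0078, adjusted 0.0109). The innermost 1 Mb stood highest on each side, with means of 52.7% on the centromeric and 50.6% on the telomeric side, and most later bins had means of 30.1% to 40.4%. In Cdca3 libraries, where the same flanks lie in trans, wide intervals were 0% to 8.64% of flank sites. On their own chromosome 6, Cdca3 libraries had 14.8% ± 10.9 wide intervals in flanks of the same lengths around their gap, and 8.72% ± 6.90 in the rest of that chromosome. That difference was 6.13 ± 4.06 percentage points, above 0 in 8 of 8 libraries (exact two-sided sign-flip permutation test, p = 0.0078, adjusted 0.0109). The comparisons of width were chosen after the values had been seen.

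**Figure D4:**
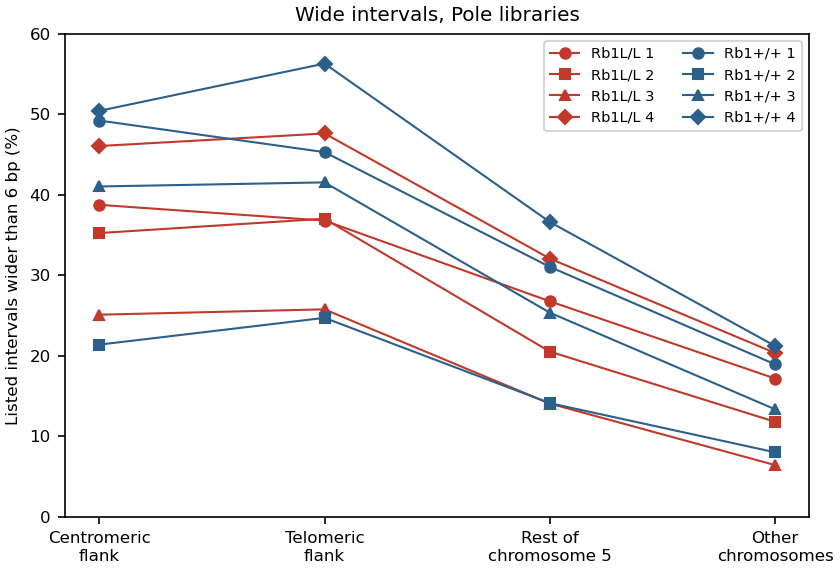
Share of listed intervals wider than 6 bp (percent) in the 8 Pole libraries, for the centromeric flank, the telomeric flank, the rest of chromosome 5 and all other chromosomes. Each line is a library, Rb1L/L in red and Rb1+/+ in blue, and every line is higher in both flanks than in the rest of chromosome 5, and higher there than on other chromosomes.

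Between genotypes, the Pole flanks did not differ detectably in any of the measures taken. Of the shares of chromosome 5 sites given above, the Rb1L/L libraries held both the highest and the lowest value, and the highest belonged to the library with the shortest list. The means were 21.5% ± 3.41 in Rb1L/L and 21.7% ± 1.22 in Rb1+/+ cells (SD, n = 4 each), a difference of -0.232 percentage points with a 95% interval of -4.46 to 5.75 (exact two-sided permutation test, p = 0.914, adjusted 1 over 7 comparisons). Leaving out single libraries turned its sign, as the values given with the alternatives show.

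The balance between the flanks did not differ beyond the error either. The centromeric flank held 50.9%, 66.7%, 67.2% and 61.8% of Pole flank sites in Rb1L/L libraries, and 53.0%, 63.3%, 60.7% and 60.1% in Rb1+/+ libraries. Pair 1 was lowest in both genotypes. The difference of means was 2.38 percentage points, with a 95% interval of -12.3 to 14.2 (exact permutation p = 0.571, adjusted 1). Called regions covered 47.6%, 57.0%, 59.2% and 58.4% of the flanks in Rb1L/L libraries, and 49.5%, 52.4%, 64.0% and 63.4% in Rb1+/+ libraries. That difference was -1.80 percentage points, with a 95% interval of -16.4 to 9.74 (exact permutation p = 0.686, adjusted 1). The share of wide intervals in the flanks differed by -4.59 percentage points, with a 95% interval of -27.4 to 24.0 (exact permutation p = 0.514), outside that family. With 4 libraries in each genotype the smallest p is 0.0286, and the intervals leave room for differences of several percentage points.

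**Figure D5:**
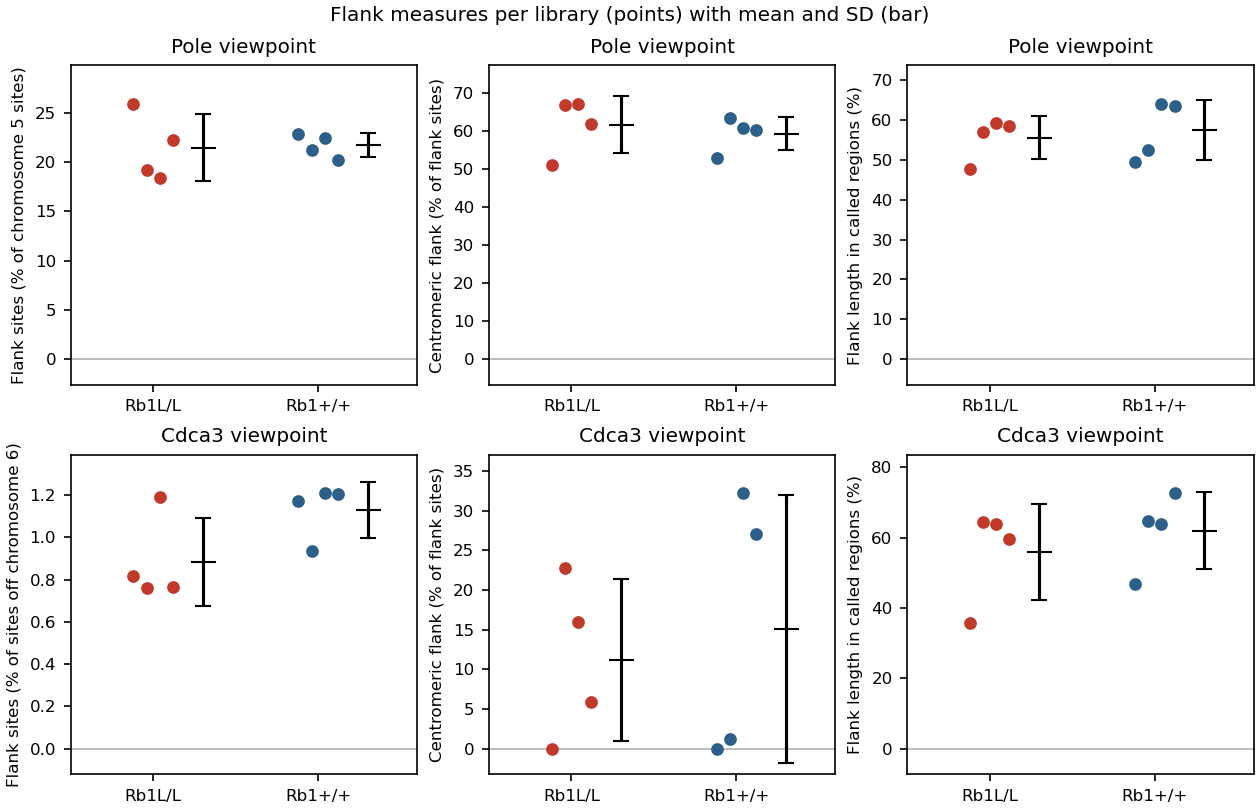
Flank share of sites, centromeric share of flank sites and flank length in called regions (all in percent) for the Pole (upper) and Cdca3 (lower) viewpoints. Points are libraries, Rb1L/L left in red and Rb1+/+ right in blue, and black bars are the mean and SD of 4. The genotypes overlap in all 6 panels. The means of the Cdca3 flank share are 0.883% in Rb1L/L and 1.13% in Rb1+/+ cells.

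Window by window, no Pole flank window passed the test for a genotype difference. Of 167 chromosome 5 windows with at least 8 sites, 30 lay in the flanks, and none of the 30 had an adjusted p below 0.05 in limma (smallest adjusted p 0.983), as none of the 167 had (0% called). At an unadjusted p below 0.05 stood 1 of the 30 flank windows, against 1.2% of all windows tested. Of the 30, 15 were higher and 15 lower in Rb1L/L cells, with a median log2 fold change of -0.01, against 0.01 over all 167. The median 95% interval ran to 1.59 log2 units on each side of its estimate, and in 8 of the 30 it lay within 1 log2 unit.

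The window with the smallest p was that from 114.5 to 115 Mb. It had 8, 20, 0 and 0 sites in Rb1L/L libraries, against 50, 30, 31 and 92 in Rb1+/+ libraries. Per 1000 chromosome 5 sites these were 2.07, 2.57, 0 and 0 in Rb1L/L libraries, against 10.5, 5.46, 3.56 and 10.5 in Rb1+/+ libraries. All Rb1L/L values lay below all Rb1+/+ values, which was so for 0.599% of the 167 windows, namely this window, and in the other direction for 0%. The log2 fold change was -4.14 ± 1.45 (SE), on log2 of sites plus 0.5 per 1000 (limma, unadjusted p = 0.0161, adjusted p = 0.983).

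The called regions ended differently at the same place. The region that starts near 113.5 Mb ended at 114.767, 114.858, 114.384 and 114.360 Mb in Rb1L/L libraries, against 115.237, 115.270, 114.872 and 115.298 Mb in Rb1+/+ libraries. The nearest ends of the genotypes, 114.858 and 114.872 Mb, lay closer to each other than the ends within either genotype spread. Its length was 1.25, 1.29, 0.800 and 0.895 Mb in Rb1L/L libraries, against 1.63, 1.93, 1.33 and 1.84 Mb in Rb1+/+ libraries. These ends rest on the same sites as the window, were picked for the window's values, and were given no test.

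The next windows by p were less uniform. The window from 116 to 116.5 Mb had 49, 19, 52 and 71 Pole sites in Rb1L/L libraries, against 0, 0, 84 and 45 in Rb1+/+ libraries (log2 fold change 3.00 ± 1.56 SE, limma unadjusted p = 0.0816, adjusted p = 0.983). The window from 103.5 to 104 Mb had 12, 40, 21 and 38 sites in Rb1L/L libraries, against 0, 0, 40 and 39 in Rb1+/+ libraries (log2 fold change 2.53 ± 1.49 SE, limma unadjusted p = 0.118, adjusted p = 0.983). In both, replicates 1 and 2 of Rb1+/+ cells listed none and replicates 3 and 4 overlapped the Rb1L/L values. Among single sites, 46 of 2403 were listed in at least 3 Rb1L/L and at most 1 Rb1+/+ libraries, and 116 the other way round, which is 1.91% and 4.83% of the Pole flank sites. In the rest of chromosome 5 these shares were 4.27% and 3.42% of 11579 sites. Of the 999 telomeric sites, 17 (1.70%) were of the first kind and 85 (8.51%) of the second. Of the 1404 centromeric sites, 29 (2.07%) and 31 (2.21%) were. Neighbouring sites often share a value, so these counts are given without a test. No site of the flanks was listed in all 16 libraries.

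Seen from Cdca3 on chromosome 6, the same flanks were lopsided the other way. The centromeric flank held 0, 52, 53 and 9 Cdca3 sites in Rb1L/L libraries, and 0, 2, 71 and 70 in Rb1+/+ libraries. The telomeric flank held 86, 176, 279 and 145 sites in Rb1L/L libraries, and 162, 162, 149 and 189 in Rb1+/+ libraries. The telomeric count was the higher in all 8 libraries, and the centromeric flank was without a listed site in both libraries of pair 1. Taken culture by culture, the centromeric share of flank sites was 47.3 ± 11.5 percentage points higher in Pole than in Cdca3 libraries (SD, n = 8), in 8 of 8 cultures (exact two-sided sign-flip permutation test, p = 0.0078, adjusted 0.0109). In base pairs of called regions, in place of sites, the difference was 29.98 percentage points (exact p = 0.0078). Cis and trans regions are of different grain, and the part of that in this value was not tested. The comparison of centromeric shares was chosen after the values had been seen.

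Along chromosome 5, the mean density of Cdca3 sites was greatest toward the distal end and not beside the Pole gap. Over the 8 libraries the means were 3.53 ± 3.54 sites per Mb in the centromeric flank, 18.1 ± 5.83 in the telomeric flank and 24.9 ± 6.19 beyond 121 Mb (SD). Below 60 Mb the mean was 4.52 ± 1.59, and from 60 to 100 Mb it was 3.04 ± 1.41. The flanks together had a log2 density over the rest of chromosome 5 of 0.22 ± 0.35, above 0 in 5 and below 0 in 3 of 8 libraries (exact two-sided sign-flip permutation test, p = 0.125, adjusted 0.125). This value depended on what the flanks were set against. Against 60 to 100 Mb alone it was 1.88 (exact p = 0.0078).

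The deposited values of the Cdca3 sites split by side as well. In the 6 Cdca3 libraries with sites in both flanks, the median value was 0.00879, 0.00731 and 0.0190 centromeric in Rb1L/L replicates 2 to 4, and 0.0412, 0.00820 and 0.0182 in Rb1+/+ replicates 2 to 4. On the telomeric side the medians were 1.74e-06, 0.000209 and 0.000481 in those Rb1L/L libraries, and 5.02e-05, 2.45e-06 and 8.74e-05 in those Rb1+/+ libraries. Each library had the smaller median on the telomeric side. The centromeric medians of Rb1+/+ replicate 2 and Rb1L/L replicate 4 rest on only 2 and 9 sites. Neighbouring sites often share a value, so the medians are given as a description.

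Cdca3 libraries listed sites in 29 of the 38 flank windows, and in all 8 libraries in 6 of them, every such window lying in the telomeric flank. None of the 12 centromeric windows with a Cdca3 site had sites in all 8 libraries, while 35.3% of the telomeric windows with a site had them, and 19.7% of windows outside the flanks. The highest window by mean sites per 1000 off chromosome 6, from 115.5 to 116 Mb, had 24, 35, 30 and 18 sites in Rb1L/L libraries, and 26, 30, 23 and 21 in Rb1+/+ libraries. The next, from 114.5 to 115 Mb, had 9, 25, 22 and 13 sites in Rb1L/L libraries, and 16, 18, 22 and 23 in Rb1+/+ libraries. After it came that from 114 to 114.5 Mb, with 0, 25, 26 and 19 sites in Rb1L/L libraries, and 18, 21, 14 and 28 in Rb1+/+ libraries. The lowest windows tested, from 103, 102.5 and 103.5 Mb, held 10, 16 and 15 sites over the 8 libraries, all of them in Rb1+/+ libraries. The sites of the window from 102.5 Mb were all in replicate 4, and those from 103.5 Mb all in replicate 3. The window from 103 Mb had 1 site in replicate 2 and 9 in replicate 4.

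The views parted in particular windows. The windows from 100.5, 101, 106 and 109 Mb held Pole sites in all 8 libraries and no Cdca3 site in any, though that from 109 Mb is cut by the gap. The window from 115 to 115.5 Mb held Pole sites in 2 libraries, 4 and 8 of them in Rb1+/+ cells. From Cdca3 it held 15, 26, 18 and 10 sites in Rb1L/L libraries, and 16, 16, 15 and 14 in Rb1+/+ libraries. The window from 113 to 113.5 Mb held no Pole site and Cdca3 sites in 6 libraries. Both views were without sites in the windows from 105, 117 and 117.5 Mb. Over the 38 windows, the mean number of Pole sites and of Cdca3 sites had a Pearson correlation of 0.17 and a Spearman correlation of 0.34. Within the centromeric flank these were 0.66 and 0.55, and within the telomeric flank 0.30 and 0.53 (19 windows each). The windows share their number of restriction sites between the views, so the correlations are a description.

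Single sites told the views apart by how often they came back. Of 1018 distinct Cdca3 sites in the flanks, none was listed in all 8 Cdca3 libraries and 654 (64.2%) were listed in exactly 1. In the rest of chromosome 5, 1 of 5412 distinct Cdca3 sites (0.0185%) was listed in all 8, and 52.7% were listed in exactly 1. Sites listed in all 8 Cdca3 libraries were thus rare on the whole chromosome. Both viewpoints listed 744 of the flank sites, which is 31.0% of the Pole sites and 73.1% of the Cdca3 sites. On the centromeric side the shared sites were 13.8% of Pole and 87.0% of Cdca3 sites, and on the telomeric side 55.1% of Pole and 69.2% of Cdca3 sites. Pole calls follow a denser list on this chromosome, which bears on these shares and was not tested.

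Merged Cdca3 regions over the flanks numbered 3. The one from 109886323 to 127345981 (17.5 Mb) had calls in all 8 libraries, 18 calls in all. The bases covered in every library came to 12.9 Mb, in separate pieces. As a union of calls, this region starts inside the Pole gap and spans the telomeric flank. In single Cdca3 libraries, called regions covered 70.5% to 99.2% of that flank. The one from 106077496 to 109840641 (3.76 Mb) had calls in 6 libraries, and the one from 100761277 to 105291820 (4.53 Mb) in 4, 1 of them Rb1L/L and 3 Rb1+/+. The gap was thus not free of sites in this view. Cdca3 libraries listed 0, 55, 57 and 62 sites in it in Rb1L/L cells, and 40, 56, 53 and 51 in Rb1+/+ cells.

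Between genotypes, the flanks held a smaller share of the Cdca3 sites lying off chromosome 6 in each Rb1L/L library than in the Rb1+/+ library of the same number, but not beyond the error. The shares were 0.816%, 0.759%, 1.19% and 0.766% in Rb1L/L libraries, against 1.17%, 0.934%, 1.21% and 1.21% in Rb1+/+ libraries. Replicate 3 of Rb1L/L cells lay among the Rb1+/+ values. The means were 0.883% ± 0.207 in Rb1L/L and 1.13% ± 0.133 in Rb1+/+ cells (SD, n = 4 each), a difference of -0.248 percentage points with a 95% interval of -0.452 to 0.258 (exact two-sided permutation test, p = 0.0857, adjusted 0.6 over 7 comparisons). With only sites whose deposited value was under 0.01, the difference was -0.218 with an exact permutation p of 0.0286, unadjusted.

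The other Cdca3 measures varied more within genotypes than between them. The centromeric share of flank sites averaged 11.2% ± 10.2 in Rb1L/L and 15.1% ± 16.9 in Rb1+/+ cells, a difference of -3.98 percentage points with a 95% interval of -32.3 to 22.8 (exact permutation p = 0.714, adjusted 1). Called regions covered 55.9% ± 13.7 of the flanks in Rb1L/L and 62.0% ± 10.9 in Rb1+/+ cells, a difference of -6.08 percentage points with a 95% interval of -37.2 to 17.8 (exact permutation p = 0.543, adjusted 1). The genotype difference of the flank share was itself compared between viewpoints, by taking for each culture its Cdca3 share away from its Pole share. It differed by 0.0158 percentage points, with a 95% interval of -4.48 to 6.14 (exact permutation p = 1). The shares have unlike denominators, chromosome 5 sites at Pole (mean 21.6%) and sites off chromosome 6 at Cdca3 (mean 1.01%). This comparison therefore follows the Pole values for the most part, and does not set each difference against its own level.

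No Cdca3 flank window passed the window test either. Of 1732 windows tested off chromosome 6, 22 lay in the flanks, and none of these had an adjusted p below 0.05 (limma, smallest adjusted p 0.749), as none of the 1732 had (0% called). No flank window had an unadjusted p below 0.05, against 4.91% of all windows tested. Of the 22 windows, 5 were higher and 17 lower in Rb1L/L cells, with a median log2 fold change of -0.80. Over all 1732 windows, 858 were higher and 874 lower, with a median of -0.01. Single Cdca3 regions span several neighbouring windows, so these counts are given without a test. The window from 108.5 to 109 Mb had the smallest p, with 0 sites in every Rb1L/L library, against 0, 0, 7 and 14 in Rb1+/+ libraries (limma unadjusted p = 0.0887, adjusted p = 0.749). The windows from 114 and from 113.5 Mb came next, with log2 fold changes of -1.39 ± 0.85 and -2.35 ± 1.64 (SE), and neither passed the test.

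The window from 114.5 to 115 Mb was the flank window without overlap between genotypes at Cdca3 too, when counted per 1000 sites off chromosome 6. It had 0.854, 0.833, 0.790 and 0.646 in Rb1L/L libraries, against 1.16, 1.02, 1.21 and 1.07 in Rb1+/+ libraries. Values that do not overlap, lower in Rb1L/L cells, were seen in 1.91% of the 1732 windows, and higher in 0.808%. The log2 fold change was -0.51 ± 0.54 (SE), with a 95% interval of -1.58 to 0.56 (limma, adjusted p = 0.880), and the numbers of sites themselves overlapped. The libraries of both viewpoints were taken to share 8 cultures, so this window's values at Pole and at Cdca3 are not treated as independent.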

How the data were processed

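Each of the 16 libraries had a list of sites and a list of called regions. The sites are intervals with a p-value or q-value below 0.05 that the authors deposited without a header; which of these it is could not be settled. Regions are deposited as coordinates. Coordinates are in mm9, which is the build that the submitters' processing notes name; the sources used here give no aligner, caller or threshold. Without counts, depth is unknown, intervals for counting error cannot be given, and longer lists may reflect more reads.

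Members and lists were chosen with earlier results of these data known. Flank shares, site densities, coverage by called regions and interval widths were computed per library in Python 3.11.15 (numpy 2.4.6, pandas 2.3.3). Genotypes were compared by exact permutation tests over 70 assignments, with 95% intervals by inversion, and stretches or viewpoints by sign flips over 8 libraries or cultures, each family adjusted by Benjamini-Hochberg. Windows of 500 kb with at least 8 sites were tested with limma 3.58.1 under R 4.3.3, with trended eBayes. The values were log2 site numbers after adding 0.5, taken per 1000 chromosome 5 sites (Pole) or sites off chromosome 6 (Cdca3). Named windows are, per viewpoint, the 3 with the smallest p, the 3 highest, the 3 lowest and those beside the gap; named regions are the 3 longest and those in all 8 libraries. Other windows and regions were named after their values were seen. Alternatives were a stricter value, other window sizes, denominators and flank limits, pairing and leaving out libraries. Genotypes were not paired by matched numbers in the main tests. No genome of the files' build was used, so no sequence is shown.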

Additional observations from a re-analysis of the deposited data

Results flagged for a closer look

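In 38 checks, each of 1 measure in 1 group of 4 libraries, 6 found a library far from the other 3. Chance gives about 1 in 20 for a single check. The measures rest on the same sites, so the number found cannot be set against that rate. At Pole, replicate 1 of Rb1L/L cells had 511 sites in the centromeric flank, against 996, 1000 and 1051 in the other 3. Replicate 4 of Rb1L/L cells had 649 Pole sites in the telomeric flank, against 489 to 497 in the others.

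At Cdca3, replicate 3 of Rb1L/L cells held 1.19% of its sites off chromosome 6 in the flanks, the highest of its genotype, and replicate 2 of Rb1+/+ cells held 0.934%, the lowest of its genotype. Without that Rb1L/L library the difference of the share was -0.351 percentage points, in place of -0.248. Replicate 1 of Rb1L/L cells had 35.6% of the flanks in called regions, the lowest of the Cdca3 libraries, and 0 sites in the gap. It had the shortest Cdca3 list, at 15802 sites.

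The gap is outside the flanks and empty in all 8 Pole libraries, but Cdca3 libraries listed a median of 54 sites in it, in 7 of 8 libraries.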

How the results depend on the processing

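Across 17 results, 192 alternatives were run, of which 137 were planned, and 162 counted as unchanged. Unchanged meant the same direction and side of the threshold. For flank windows called, which have no direction, it meant the same number. At a deposited value under 0.01, the Cdca3 flank share passed its test unadjusted (-0.218 percentage points, exact permutation p = 0.0286), the comparison of genotype differences between viewpoints turned to -0.0439, and the Cdca3 log2 density to -0.051. That density passed its test (exact p = 0.0078) against 60 to 100 Mb (1.88), within 5 Mb of an edge (0.90) and in base pairs of called regions (0.80). Within 5 Mb of an edge, the Cdca3 centromeric share difference was 0.0374 and the coverage difference 1.25 percentage points. Without pair 1, added after seeing the data, the comparison between viewpoints was -1.12 and the Pole minus Cdca3 own-chromosome share -1.001 (exact permutation p = 0.156). The cause of these changes was not tested.

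Leaving out each library in turn, the genotype difference at Pole ran from -1.72 to 0.783 for the flank share, from 0.283 to 5.95 for the centromeric share, from -4.42 to 0.845 for coverage and from -10.7 to -0.671 for wide intervals. At Cdca3 these were -0.351 to -0.207, -9.02 to 1.74 and -11.2 to 0.699, and between viewpoints -1.50 to 1.13. The log2 density ran from 0.876 to 0.966 at Pole and from 0.163 to 0.305 at Cdca3, the own-chromosome share from -1.46 to -0.933 and the centromeric difference from 45.2 to 50.03. That centromeric difference was 29.98 in base pairs of called regions and 56.8 at a value under 0.01, and the own-chromosome share was -2.18 within 5 Mb of an edge, each with exact p = 0.0078. The width differences ran from 13.2 to 14.4 for the flanks, from 9.80 to 11.7 for near against far and from 5.29 to 6.80 at Cdca3. Flank windows called stayed at 0 in limma under every alternative run, while over all windows 1 of 1688 was called at Cdca3 without Rb1L/L replicate 1. There were 1 to 3 Pole flank windows and 0 Cdca3 flank windows at an unadjusted p below 0.05.

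Matched replicate numbers correlated at 0.278, -0.0716, 0.113 and -0.103 at Pole and at 0.154, 0.0691, 0.114 and 0.0394 at Cdca3. Unmatched numbers ran from -0.282 to 0.284 at Pole and from -0.144 to 0.109 at Cdca3. Whether matched cultures share more than a number was not tested. With pair as a replicate block, 0 windows were called at both viewpoints, the Pole flank share difference stayed at -0.232 (exact p = 1) and the Cdca3 one at -0.248 (exact p = 0.125, the smallest for 4 pairs), and no call changed. Lists that stop at a value threshold and hold no counts limit what can be read from a missing site.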

Other observations

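In the reverse view, Pole libraries listed 0 to 107 sites, 65.25 on average, in the chromosome 6 flanks of the Cdca3 gap, while Cdca3 libraries listed 1423 to 2127 there, 1794 on average. In the chromosome 5 flanks, Cdca3 libraries listed 86 to 332 sites. Pole lists were shorter off their own chromosome, with a mean of 6122 sites, against 19943 in Cdca3 lists. As shares of those sites, the chromosome 6 flanks held 0.945% ± 0.657 in Pole libraries and the chromosome 5 flanks 1.01% ± 0.209 in Cdca3 libraries (SD, n = 8 each). Both Pole libraries without a site there were replicate 1.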
